A study of Mus musculus with 9 samples.

Results

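A set of 42 genes was expressed in the islets of wild-type (WT) and db/+ mice and stood far lower in the islets of db/db mice. Islets of Langerhans are endocrine cell clusters in the pancreas, and most mouse islet cells are insulin-secreting beta cells. RNA sequencing counts were available for 9 libraries of islets from mice aged 12 weeks, 3 each of WT, db/+ and db/db. All 9 carry the strain label BKS.Cg-Dock7m +/+ Leprdb/J, and the genotype labels are wild type (+/+), heterozygous (+/-), here called db/+, and db/db (-/-). The db allele is a mutation of Lepr, which encodes the leptin receptor, present in every cell of the body, so what is seen in islets of db/db mice comes with obesity and diabetes of the whole animal. The labels give neither the sex of the mice nor whether islets of several mice were pooled, and they do not say that each library came from a separate animal. The p-values below therefore measure only the spread between these libraries.

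The genes were chosen by their measured levels. A gene had to reach 5 CPM (counts per 1000000 counts of the library) in each of the 6 WT and db/+ libraries, and the lowest of those 6 had to be more than 3 times each of the 3 db/db libraries. Of 52459 gene symbols in the table, 10783 met the first condition and 62 of them met both, which is 0.575% of the 10783. The rule then left out 14 genes by name, among them Slc2a2, Slc30a8, Mafa and Trpm5, and 6 whose symbols are Gm numbers or Rik clones. The 42 others all passed the low-count filter used for testing. Because db/db values chose them, the lower level in db/db is a description here and carries no test. The comparison of db/+ with WT was tested. It is not the contrast of the choice, but the choice limited it, since a gene much lower in 1 of these groups had a lower minimum to be set against db/db.

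The choice depends on how libraries are scaled. With CPM from TMM-normalised library sizes, 25 of the 42 genes would have been chosen, and the 17 that drop out are Plut, Dennd4c, Sfrp5, Adora1, Apobec1, Tfrc, Robo2, Dnaja1, Lifr, Grk5, Atp4a, Prss53, Nacad, Pcx, Epha7, Hadh and Fkbp1b. On that scale the same 42 genes still stood between 3.26% and 33.7% of the mean of the other 6 libraries. Leaving out any 1 library can only loosen the rule, so it could lose none of the 42. It gave between 42 and 52 genes.

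Mature beta cells sense glucose by taking it up, burning it in mitochondria and turning the rise in ATP into calcium entry and insulin release. A set of transcription factors holds this programme in place, and long exposure to high glucose is known to weaken it. The 42 genes include enzymes of transmitter and fuel metabolism, receptors, regulators of vesicle traffic, proteins better known from hair cells or neurons, and several proteins of little known function.

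Total counts per library ran from 8860024 to 11734886, so 3 counts, the limit that a count of 0 allows, correspond to 0.256 to 0.339 CPM (counting error only). Insulin transcripts were abundant in every library, with Ins2 at 41990 to 60840 CPM in WT and db/+ and 37750 to 53000 CPM in db/db. Ins1, the other insulin gene, was at 28840 to 41760 CPM in WT and db/+, and the db/db libraries held 11870, 28490 and 29540 CPM. Iapp, which encodes the amyloid peptide released with insulin, was at 13770 to 18710 CPM in WT and db/+ and 24670 to 37920 CPM in db/db. Lepr itself was at 1.61 to 7.79 CPM, and counts summed over its exons are no check of the db allele, which alters splicing. In bulk islet RNA, fewer cells of a type and less RNA per cell cannot be told apart. Libraries differed in 4 other ways that bear on the genes described here: ribosomal RNA overlap, sex-linked transcripts, the letter that opens the sample title, and transcripts of other cell types. Their values are set beside the results below.

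Across the 42 genes, the db/db mean was between 2.79% and 28.8% of the mean of the other 6 libraries, with a median of 18.5%. The median of all 10783 genes on the same scale was 81.9%, a shift of -0.29 in log2, and it was 95.9% after TMM scaling, where the median of the 42 was 21.7%. The mean was under 10% for 7 genes, from 10% to 20% for 17 and at 20% or more for 18. By library, the median was 15.8% in db/db 1, 20.8% in db/db 2 and 20.1% in db/db 3, against 93.3% to 104.5% in the 6 libraries of WT and db/+. Their mean level in the 6 libraries ran from 6.76 to 735 CPM with a median of 48.2 CPM, against 34.3 CPM for all 10783. Among the 6 libraries the highest value was a median of 1.31 times the lowest, the same as for all 10783 genes.

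**Figure D1:**
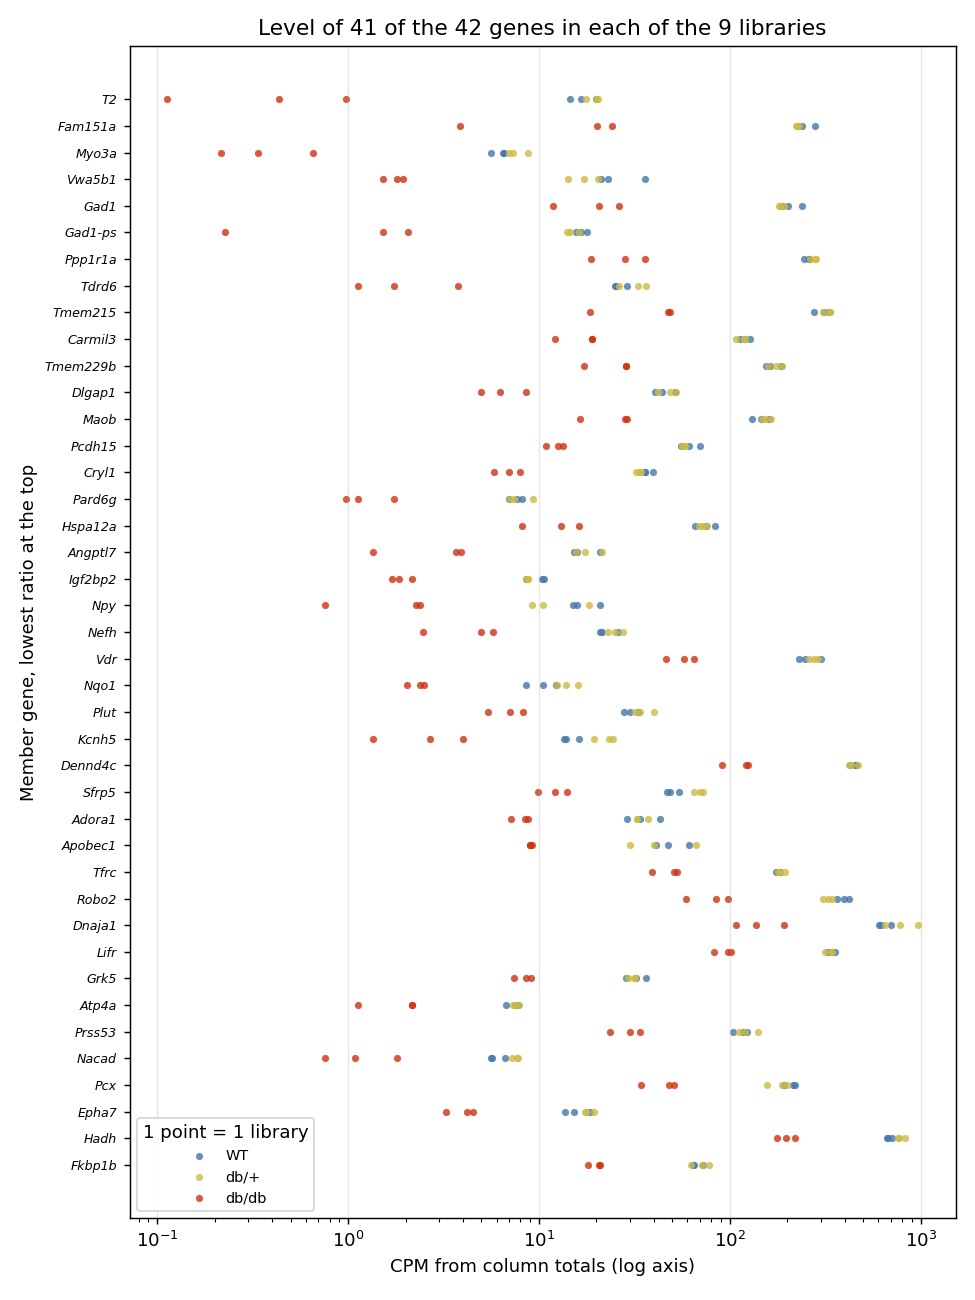
CPM of 41 of the 42 genes (rows) in the 9 libraries on a log axis, 1 point per library, coloured by genotype and ordered by the ratio of the highest db/db value to the lowest other value. The db/db points lie apart from the others in every row because the genes were chosen that way, and the gap narrows from T2 at the top to Fkbp1b at the bottom.

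**Figure D2:**
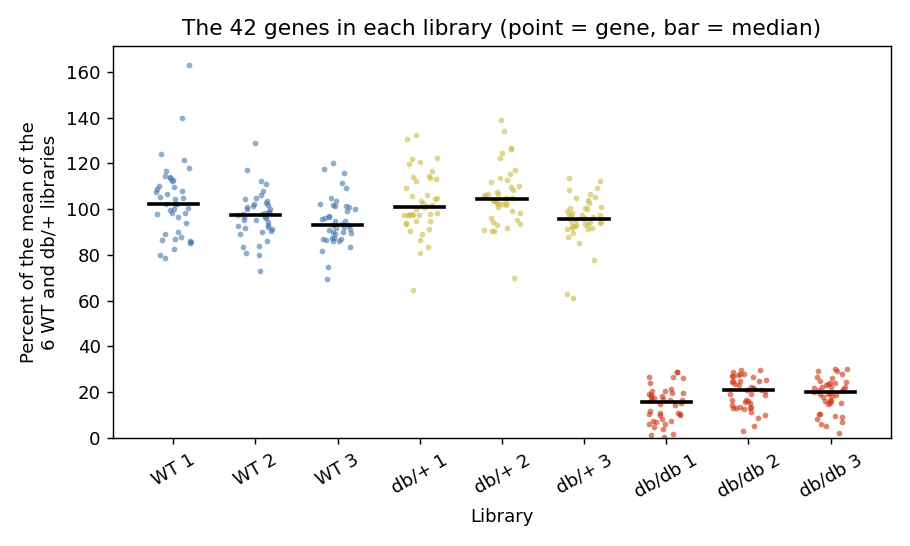
Each of the 42 genes in each library as a percentage of its mean over the 6 WT and db/+ libraries, with the median of the 42 as a bar. The medians lie between 93.3% and 104.5% in WT and db/+ and between 15.8% and 20.8% in db/db.

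Genes of transmitters and peptides came first among the well-known members. Gad1 makes the transmitter GABA from glutamate, and GABA is released by beta cells. Gad1 stood at 203, 188 and 238 (WT), 193, 182 and 184 (db/+) and 11.8, 26.1 and 20.7 CPM (db/db). The other glutamate decarboxylase gene, Gad2, reached at most 0.523 CPM in any library, so nearly all decarboxylase counts were assigned to Gad1. Gad1-ps, a processed copy of Gad1 on chromosome 10, shares sequence with it, so its counts are uncertain. In CPM, Gad1-ps read 17.9, 15.6 and 16.6 (WT), 14.1, 16.2 and 14.5 (db/+) and 0.226, 2.05 and 1.52 (db/db). Its level was 6.98% to 8.92% of that of Gad1 in 8 libraries and 1.91% in db/db 1, where it rests on 2 counts. Maob, a mitochondrial enzyme that breaks down monoamines, lies on the X chromosome. For Maob the libraries gave 159.8, 145 and 131 CPM (WT), 152, 164 and 148 (db/+) and 16.5, 28.3 and 28.9 (db/db). Its partner on the same chromosome, Maoa, was at 9.94 to 32.7 CPM in WT and db/+ and at 8.10 to 11.2 CPM in db/db and did not pass the test against WT (adjusted p = 0.228 by the quasi-likelihood test of edgeR, Benjamini-Hochberg adjusted). Npy encodes neuropeptide Y, which lowers insulin secretion. The level of Npy was 21.01, 15.9 and 15.2 (WT) and 18.3, 10.5 and 9.203 (db/+) against 2.26, 2.38 and 0.7598 CPM (db/db). The 6 libraries of WT and db/+ were widely spread for Npy, and all of them lay above the db/db libraries.

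Enzymes of fuel metabolism made up another group. Hadh, the short-chain 3-hydroxyacyl-CoA dehydrogenase of mitochondrial fat oxidation, also restrains glutamate dehydrogenase in beta cells. It had the highest mean CPM of the 42 genes. Hadh reached 663, 710.4 and 675 CPM across WT and 827, 772 and 764 across db/+ but 177, 219 and 197 across db/db. The 2 chains of the trifunctional protein, which handles longer fatty acids, did not pass the test in db/db against WT, with Hadha at -0.05 ± 0.07 (adjusted p = 0.545) and Hadhb at -0.16 ± 0.12 (adjusted p = 0.307) as log2 fold change ± SE by edgeR. With library totals alone as the scale Hadhb passed as lower (-0.38, adjusted p = 0.0445). Pcx, pyruvate carboxylase, feeds pyruvate into the citric acid cycle without oxidising it. WT libraries held 192, 219 and 213 CPM of Pcx, db/+ libraries 157, 200.5 and 188 and db/db libraries 34.2, 48.2 and 51.1. Pdha1, a subunit of the enzyme that oxidises pyruvate, rose by a log2 fold change of 0.39 ± 0.07 (adjusted p = 5.26e-04 by edgeR), a call that ended with library totals alone (0.17, adjusted p = 0.2498). Cryl1 encodes a sugar-acid dehydrogenase also known as lambda-crystallin. Cryl1 stood at 39.6, 35.9 and 35.8 (WT), 34.4, 33.6 and 32.4 (db/+) and 6.998, 5.83 and 7.92 CPM (db/db). Nqo1 encodes a quinone reductase that is a standard target of the antioxidant factor NRF2. In CPM, Nqo1 read 10.6, 12.3 and 8.58 (WT), 16.1, 13.9 and 12.4 (db/+) and 2.03, 2.38 and 2.497 (db/db). For the 4 enzymes the db/db mean was 26.9% (Hadh), 22.8% (Pcx), 19.6% (Cryl1) and 18.7% (Nqo1) of the mean of the other 6 libraries.

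Receptors and their regulators were the next group. Vdr, the vitamin D receptor, is a ligand-activated transcription factor. For Vdr the libraries gave 301, 246 and 229 CPM (WT), 276, 289 and 259.6 (db/+) and 46.05, 57.7 and 64.6 (db/db). Rxra, which encodes the partner with which it binds DNA, was at 43.2 to 60.6 CPM in WT and db/+ and 44.4 to 63.0 CPM in db/db. It rose by a log2 fold change of 0.33 ± 0.11 against WT (adjusted p = 0.0238 by edgeR), a call that ended with library totals alone (0.11, adjusted p = 0.553). Cyp24a1, a classical target gene, had at most 0.113 CPM in any library. Lifr is the receptor for leukaemia inhibitory factor. The level of Lifr was 354, 329 and 342 (WT) and 344, 341 and 316 (db/+) against 97.97, 82.8 and 101 CPM (db/db). Il6st, the gp130 chain with which Lifr signals, fell by 0.59 ± 0.09 on the log2 scale in db/db against WT (adjusted p = 2.57e-04 by edgeR). Robo2 is a guidance receptor known for keeping islet cells in their architecture. Robo2 reached 398, 365 and 424 CPM across WT and 342, 326 and 308 across db/+ but 59.1, 97.6 and 84.99 across db/db. Its ligand genes Slit2 (adjusted p = 0.145) and Slit3 (adjusted p = 0.261) did not pass edgeR's test in db/db against WT and reached at most 11.5 CPM in any library. Against db/+, Slit3 rose by 1.21 ± 0.30 on the log2 scale (adjusted p = 0.0067 by edgeR) and Slit2 did not pass (adjusted p = 0.556). Adora1, the adenosine A1 receptor, couples to inhibition of cAMP synthesis. WT libraries held 43.1, 28.96 and 33.8 CPM of Adora1, db/+ libraries 32.6, 37.4 and 32.7 and db/db libraries 7.11, 8.75 and 8.47. Epha7 is an ephrin receptor of contact signalling. Epha7 stood at 18.5, 13.7 and 15.3 (WT), 19.3, 17.6 and 17.4 (db/+) and 4.51, 4.21 and 3.26 CPM (db/db). Grk5, a kinase that switches off activated G protein-coupled receptors, was lower as well. In CPM, Grk5 read 32.3, 28.5 and 36.6 (WT), 31.7, 31.4 and 29.3 (db/+) and 9.14, 8.53 and 7.38 (db/db). The group lies near the threshold: except for Vdr, each of these members would not have been chosen on the TMM scale.

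Signalling inhibitors and secreted regulators followed. Ppp1r1a encodes inhibitor 1 of protein phosphatase 1, which acts once phosphorylated by protein kinase A. It had the highest level per length of the 42 genes, 204.8 CPM per kilobase of exon (RPKM) as the mean of the 6 libraries. For Ppp1r1a the libraries gave 261, 259.8 and 245 CPM (WT), 279, 283 and 264 (db/+) and 18.7, 35.9 and 28.2 (db/db). Fkbp1b encodes a binding protein of ryanodine receptors, the calcium release channels. The level of Fkbp1b was 64.8, 71.99 and 64.2 (WT) and 78.2, 71.8 and 62.97 (db/+) against 18.2, 20.5 and 20.8 CPM (db/db). Ryr2, the ryanodine receptor gene, rose in db/db against WT from a low level, with 0.732 to 2.13 CPM in WT and 4.10 to 8.47 CPM in db/db (log2 fold change 2.57 ± 0.52, adjusted p = 0.00266 by edgeR). Sfrp5 is a secreted antagonist of Wnt signals. Sfrp5 reached 46.8, 54.5 and 48.6 CPM across WT and 69.5, 72.8 and 65.02 across db/+ but 9.93, 14.04 and 12.2 across db/db. All 3 db/+ libraries were above all 3 WT libraries for Sfrp5. Angptl7 is a secreted angiopoietin-like protein, and Prss53 a serine protease. WT libraries held 15.3, 20.8 and 15.9 CPM of Angptl7, db/+ libraries 21.4, 17.5 and 15.6 and db/db libraries 1.35, 3.89 and 3.69. Prss53 stood at 117, 124 and 104 (WT), 121, 140.2 and 112 (db/+) and 23.6, 33.7 and 29.96 CPM (db/db). The highest db/db value was 0.323 of the lowest other value for Prss53 and 0.331 for Fkbp1b, both close to the threshold.

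Uptake and transport genes formed a small group. Tfrc, the transferrin receptor, brings iron into cells. In CPM, Tfrc read 183, 183 and 174 (WT), 179, 195 and 184 (db/+) and 39.3, 51.2 and 53.2 (db/db). Transcripts of Fth1, the iron-storage protein ferritin heavy chain, did not pass edgeR's test in db/db against WT (-0.18 ± 0.11, adjusted p = 0.218) but did with library totals alone (-0.41, adjusted p = 0.00595). Kcnh5 is a voltage-gated potassium channel. For Kcnh5 the libraries gave 16.2, 13.5 and 13.8 CPM (WT), 24.5, 23.4 and 19.4 (db/+) and 1.35, 2.7 and 4.02 (db/db). Atp4a is the catalytic subunit of the proton pump best known from the stomach. The level of Atp4a was 7.496, 6.75 and 7.74 (WT) and 7.36, 7.61 and 7.84 (db/+) against 1.13, 2.16 and 2.17 CPM (db/db). Atp4a was low throughout, and its 6 WT and db/+ libraries lay within 6.75 to 7.84 CPM.

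Proteins of the cytoskeleton, cell polarity and vesicle traffic formed another group. Dennd4c activates Rab10, a small GTPase of vesicle traffic. Dennd4c reached 455, 456 and 428 CPM across WT and 434, 472 and 419 across db/+ but 91.5, 122 and 125 across db/db. Rab10 itself did not pass edgeR's test (0.06 ± 0.07, adjusted p = 0.537). Carmil3 belongs to a family that regulates actin capping. WT libraries held 127, 114 and 121 CPM of Carmil3, db/+ libraries 108, 121 and 118 and db/db libraries 12.1, 18.9 and 19. Dlgap1 is a scaffold protein of synapses. Dlgap1 stood at 40.5, 51.7 and 44.4 (WT), 48.8, 42.2 and 52.5 (db/+) and 4.97, 6.26 and 8.57 CPM (db/db). Pard6g is a subunit of the cell polarity complex with PAR3 and atypical protein kinase C. In CPM, Pard6g read 8.19, 7.68 and 7.01 (WT), 9.32, 7.08 and 7.41 (db/+) and 1.13, 0.972 and 1.74 (db/db). Nefh encodes the heavy neurofilament chain. For Nefh the libraries gave 21.4, 25.9 and 20.9 CPM (WT), 27.5, 25.2 and 23.1 (db/+) and 2.48, 4.97 and 5.75 (db/db). Nacad is a relative of the nascent polypeptide-associated complex. The level of Nacad was 5.58, 6.66 and 5.65 (WT) and 7.18, 7.79 and 7.67 (db/+) against 1.81, 0.756 and 1.08 CPM (db/db). Of these 6 genes Nacad had the lowest level and was the one whose db/+ libraries all lay above its WT libraries.

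Myo3a and Pcdh15 are known from the stereocilia of inner ear hair cells, the first as a myosin and the second as a cadherin of the tip link. Myo3a reached 5.58, 6.57 and 6.49 CPM across WT and 7.36, 8.78 and 6.99 across db/+ but 0.339, 0.216 and 0.651 across db/db. The 11 counts summed over the db/db libraries gave 5.77% of the level of the other 6 libraries, with a counting interval of 2.86% to 10.4% (95%, exact). WT libraries held 69.7, 55.5 and 60.8 CPM of Pcdh15, db/+ libraries 58.1, 57.4 and 56.5 and db/db libraries 10.8, 12.5 and 13.3. Counts of the other tip-link gene, Cdh23, moved the opposite way, from 0.523 to 0.837 CPM in WT to 3.89 to 5.76 CPM in db/db (log2 fold change 3.14 ± 0.40, adjusted p = 3.62e-05 by edgeR). Cdh23 overlaps the gene Vsir and the strand setting of the counting is not known, so some of these reads could belong to Vsir.

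Chaperones and regulators of RNA were also among the 42, and T2, whose function is not described here, is set beside them. Dnaja1 is a co-chaperone of HSP70. Dnaja1 stood at 696, 604 and 622 (WT), 652, 968 and 781 (db/+) and 138, 192 and 108 CPM (db/db). Its related gene Dnaja2 did not pass edgeR's test (0.06 ± 0.07, adjusted p = 0.503), whereas Hspa8, the constitutive HSP70, fell by 0.92 ± 0.13 (adjusted p = 1.66e-04). Hspa12a is a distant HSP70 relative. In CPM, Hspa12a read 83.7, 75.05 and 65.5 (WT), 69.2, 75.95 and 71.4 (db/+) and 8.13, 16.3 and 13.03 (db/db). Igf2bp2 binds messenger RNA, and variants near its human counterpart are known for their association with type 2 diabetes. For Igf2bp2 the libraries gave 10.6, 8.61 and 10.4 CPM (WT), 8.81, 8.78 and 8.52 (db/+) and 1.69, 2.16 and 1.84 (db/db). Apobec1 edits the apolipoprotein B transcript. The level of Apobec1 was 41.05, 61.4 and 47.4 (WT) and 39.9, 66.3 and 30 (db/+) against 9.03, 9.18 and 9.01 CPM (db/db). Its 3 db/db libraries were nearly equal, while WT and db/+ spread from 30 to 66.3 CPM. Tdrd6 is a Tudor-domain protein of the germ line. Tdrd6 reached 29.02, 25.1 and 25.2 CPM across WT and 33.1, 36.4 and 26.2 across db/+ but 1.13, 3.78 and 1.74 across db/db. The gene listed as T2 (chromosome 17, 8355760 to 8422728, GRCm38) had the lowest ratio of all 42. WT libraries held 19.96, 14.5 and 16.6 CPM of T2, db/+ libraries 19.8, 20.3 and 17.7 and db/db libraries 0.113, 0.972 and 0.434. It was represented in db/db by 14 counts in all, 2.81% of the level in the other 6 libraries with a counting interval of 1.53% to 4.73% (95%, exact).

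Plut is a long non-coding RNA gene that overlaps Pdx1, the gene of a central beta cell transcription factor. Plut stood at 27.98, 30.1 and 32.9 (WT), 40.2, 33.7 and 31.96 (db/+) and 5.42, 8.21 and 7.06 CPM (db/db). Pdx1 was at 153.8 to 189 CPM in WT and db/+ and 68.4 to 94.8 CPM in db/db, 44.6% of the mean of the other 6 against 21.0% for Plut. Pdx1 fell by 1.02 ± 0.08 on the log2 scale against WT (adjusted p = 7.59e-07 by edgeR). The 2 genes overlap and the strand setting of the counting is not known, so some reads could have been assigned to either.

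A last group has little known function. Fam151a (chromosome 4, 106733915 to 106748292, GRCm38) was among the most abundant of the 42 per length, at 123.5 RPKM. In CPM, Fam151a read 281, 239.8 and 227 (WT), 231, 222 and 225 (db/+) and 3.84, 24.1 and 20.2 (db/db). In db/db 1 it stood at 1.62% of the mean of the 6 libraries, and in db/db 2 and db/db 3 at 10.1% and 8.50%. Tmem215 and Tmem229b encode membrane proteins. For Tmem215 the libraries gave 329.5, 309.9 and 276 CPM (WT), 309, 334 and 336 (db/+) and 18.6, 47.6 and 48.5 (db/db). The level of Tmem229b was 185, 163 and 156 (WT) and 175, 188 and 158 (db/+) against 17.3, 28.7 and 28.6 CPM (db/db). Both were lowest in db/db 1. Vwa5b1 encodes a protein with a von Willebrand factor A domain. Vwa5b1 reached 36, 23.1 and 21.2 CPM across WT and 14.3, 20.5 and 17.1 across db/+ but 1.81, 1.94 and 1.52 across db/db. WT 1 stood above the other libraries for Vwa5b1, and all 3 db/+ libraries were below all 3 WT libraries.

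The threshold cut through a continuous range. The 5 members nearest to it were Nacad, Pcx, Epha7, Hadh and Fkbp1b, with the highest db/db value at 0.324 to 0.331 of the lowest other value. The 5 genes nearest outside were Akr1c19, Mt2, Tmem206, Gapdh and Tmem8, at 0.341 to 0.347. Gapdh stood at 28.2 to 56.8 CPM in WT and db/+ and 7.24 to 9.77 CPM in db/db. Gapdh, a gene of glycolysis, has many near-identical pseudogene copies, so its counts are uncertain. Mt2, a metallothionein gene, stood at 61.8 to 85.2 CPM in WT and db/+ and 16.3 to 21.3 CPM in db/db.

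**Figure D3:**
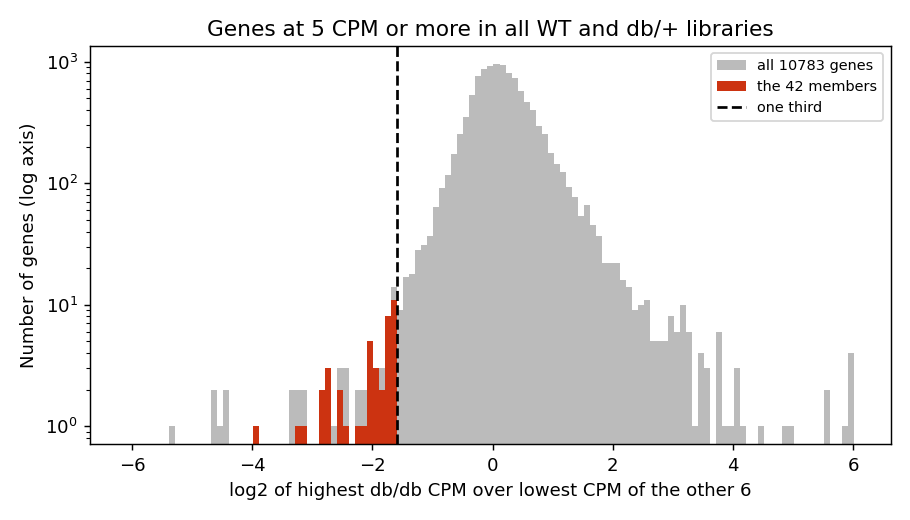
Histogram of the log2 ratio of the highest db/db CPM to the lowest CPM of the other 6 libraries for the 10783 genes at 5 CPM or more in those 6 (grey, number of genes on a log axis), with the 42 members in red and the threshold of the rule as a dashed line; ratios beyond 6 are drawn at 6. Grey to the left of the line are the 20 genes left out by name or symbol, and the members crowd towards the line.

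The rule used the levels of both groups and so limited how far a member could differ between them. In db/+ against WT, edgeR's quasi-likelihood test called 0 of the 42 genes at an adjusted p under 0.05, against 240 of 16826 tested genes, or 1.43%. The count over all genes moved with single libraries: it was 23, 27 and 58 without db/+ 1, db/+ 2 and db/+ 3, 44 without WT 3, 430, 79 and 106 without db/db 1, db/db 2 and db/db 3. Among the 42 it was 1 without WT 2 (Sfrp5) and 2 without db/db 1 (Kcnh5 and Sfrp5). At an unadjusted p under 0.05 the count was 5 of 42, against 15.6% of all tested genes. DESeq2 gave an adjusted p for 36 of the 42 and called 2 of these, Sfrp5 and Kcnh5, against 6.43% of the genes to which it gave an adjusted p. The log2 fold changes of the 42 ran from -0.63 to 0.62 with a median of 0.05 (0.02 over all tested genes), 24 above 0 and 18 below, and 32 of them lay within 0.25 of 0. A p that misses the threshold does not show that the level is the same, and the SE of the 42 fold changes ran from 0.08 to 0.39.

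The genes with the smallest p were Sfrp5, Kcnh5, Vwa5b1, Nqo1 and Robo2. Sfrp5 was higher in all 3 db/+ libraries than in any WT library, by 0.46 ± 0.11 (adjusted p = 0.0503 by edgeR and 0.00826 by DESeq2). Kcnh5 was higher in 3 of 3 as well, by 0.62 ± 0.17 (adjusted p = 0.0920 by edgeR and 0.0220 by DESeq2). Vwa5b1 was lower in 3 of 3, at -0.63 ± 0.18 (adjusted p = 0.111 by edgeR and 0.0513 by DESeq2). Nqo1, at 0.42 ± 0.16 (adjusted p = 0.221), and Robo2, at -0.29 ± 0.13 (adjusted p = 0.304), did not overlap between the groups either. In all, WT and db/+ did not overlap for 10 of the 42 genes, 7 higher and 3 lower in db/+, near the 24.6% of the 10783 expressed genes for which this held (13.5% higher and 11.1% lower). Sfrp5 and Kcnh5 thus stood above WT in db/+ and below it in db/db, by values that edgeR did not call in db/+.

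**Figure D4:**
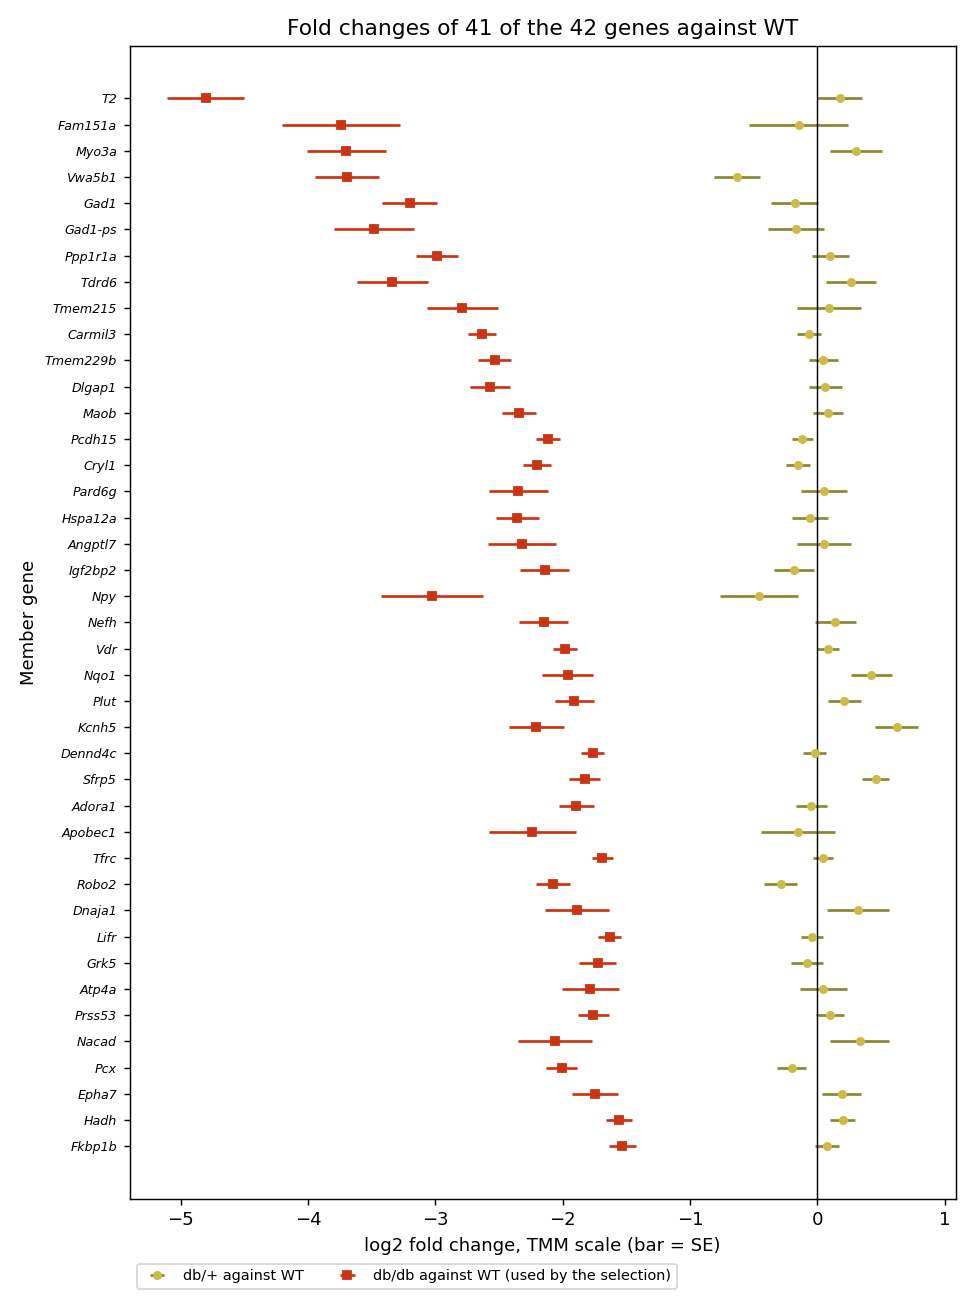
The log2 fold change against WT on the TMM scale, with its SE as a bar, for db/+ (yellow circles) and db/db (red squares) in 41 of the 42 genes. The db/+ values lie between -0.63 and 0.62 and the db/db values, which the choice of genes used, lie far to the left.

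Within db/db, the library db/db 1 was lowest for 31 of the 42 genes, beside 67.2% of the 10783 expressed genes. Gm42418 and Lars2 lie where ribosomal RNA reads can align. They took 17.9% of the counts of db/db 1, 13.3% of db/db 2 and 0.0558% of db/db 3. Their share was 1.89% to 2.58% in the WT libraries and 0.0220% to 0.0237% in the db/+ libraries. The part of this difference in db/+ against WT was not tested. With Gm42418 and Lars2 left out of the totals db/db 1 was lowest for 27 of the 42, beside 44.8% of expressed genes. On those totals 27 genes would have been chosen, 26 of them among the 42. The median of the 42 genes was then 19.0% of the mean of the other 6 libraries in db/db 1, 23.7% in db/db 2 and 19.9% in db/db 3, and the part of these reads in the result beyond the totals was not tested. The highest of the 3 db/db libraries was a median of 1.66 times the lowest, and 9.09 times for Gad1-ps.

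Sex-linked transcripts were not alike in the libraries. Xist, which coats the inactive X chromosome, was at 253 to 864 CPM in db/db, at 621, 0.7403 and 613 CPM in the WT libraries and at most 0.537 CPM in db/+. Uty, Kdm5d, Ddx3y and Eif2s3y, which lie on the Y chromosome, summed to 145 CPM in db/db 1 and at most 0.972 CPM in db/db 2 and db/db 3. They summed to 241 to 442 CPM in WT and db/+. Xist and Y-linked counts thus occurred together in WT 1 (621 and 241 CPM), WT 3 (613 and 242 CPM) and db/db 1 (253 and 145 CPM). Whether these libraries hold RNA of several mice was not tested. The median of the 42 genes was 15.8% in db/db 1, which held Y-linked counts, and 97.7% in WT 2, 102.4% in WT 1 and 93.3% in WT 3, and both WT 1 and WT 3 held Xist. The rule required the 42 genes to be low in db/db 1 and high in every WT library, so these medians say nothing about sex. The part of sex in the result was not tested. The sample titles of the db/db libraries and of WT 3 open with the same letter and those of the other 5 with another. In WT 3 the 42 genes stood at 71.8% to 121.8% of the mean of WT 1 and WT 2, with a median of 94.0%. A gene low in WT 3 could not have been chosen, and the part of the letter in the result was not tested.

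Markers of other cell types moved with genotype too. Of 30 tested acinar genes 20 rose and 10 did not pass in db/db against WT. Their summed level was 8203 to 16340 CPM in WT, 19220 to 43120 CPM in db/+ and 21130 to 57470 CPM in db/db. By library, db/+ 3 held an acinar sum of 43120 CPM, while db/db 1 held 57470, db/db 2 held 21130 and db/db 3 held 25870. The choice needed every member to be high in db/+ 3. Their median of 95.8% there therefore says nothing about acinar RNA, whose part in the result was not tested. Of 17 markers of stellate cells and pericytes 12 rose and 5 did not pass, with sums of 340 to 539 CPM in WT and db/+ and 850 to 2066 CPM in db/db, and their part in the result was not tested. Of 16 alpha cell markers 9 fell and 4 rose, with sums of 15430 to 26220 CPM in WT and db/+ and 10340 to 13390 CPM in db/db, and their part was not tested either. Of 15 duct markers 10 rose and 5 did not pass, with sums of 711 to 1008 CPM in WT and db/+ and 1192 to 1548 CPM in db/db. Of 17 endothelial markers 9 rose and 1 fell, of 16 macrophage markers 4 rose and 12 did not pass, and of 13 markers of delta and PP cells 3 rose and 2 fell. The part of these cells was not tested. Calls in db/db against WT were 21.8% higher and 19.9% lower over all tested genes. None of these markers is among the 42.

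The lists of pathway genes place these members among their neighbours. They hold some of the genes that the choice left out by name, so the counts below describe the lists and do not stand as separate evidence for the members. Of 40 genes of mature beta cells, 26 fell, 5 rose and 9 did not pass in db/db against WT by edgeR, with a median log2 fold change of -0.69 (0.01 over all tested genes). Ppp1r1a is the member on that list. The lowest others were the cation channel gene Trpm5 (-5.24 ± 0.28, adjusted p = 1.77e-06) and the transcription factor gene Mafa (-3.19 ± 0.34, adjusted p = 3.41e-04), both left out by name. The highest were Tmem27 (1.78 ± 0.12, adjusted p = 8.36e-08), a membrane protein of beta cells, and Iapp (1.25 ± 0.12, adjusted p = 3.79e-06).

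Genes of glucose metabolism, the list of Pcx, divided. Of 45 tested, 12 fell and 15 rose against WT, a split that became 18 and 6 with library totals alone, and the median was -0.02. The glucose transporter gene Slc2a2 (-2.91 ± 0.32, adjusted p = 3.15e-04), left out by name, and Gapdh (-1.97 ± 0.27, adjusted p = 4.18e-04) were lowest beside Pcx, which had -2.01 ± 0.12. Me3, a mitochondrial malic enzyme, rose by a log2 fold change of 1.91 ± 0.21 (adjusted p = 8.03e-06).

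Among 46 tested surface receptors, the list of Adora1 and Robo2, 18 fell and 8 rose against WT (median -0.10). Crhr1, a receptor of corticotropin-releasing hormone and urocortins, fell by 3.02 ± 0.45 on the log2 scale from a low level (adjusted p = 1.33e-04), and the incretin receptor gene Gipr, left out by name, by 2.01 ± 0.09 (adjusted p = 3.68e-09). Vipr2 (2.30 ± 0.30, adjusted p = 4.41e-05), a receptor of vasoactive intestinal peptide, and Cckar (2.08 ± 0.54, adjusted p = 0.0205), a cholecystokinin receptor also found in acinar cells, rose.

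Of 53 tested genes of cAMP and calcium signalling, Ppp1r1a among them, 16 fell and 15 rose (median 0.12), a split that became 12 and 7 with the title letter as covariate and 18 and 10 with library totals alone. The phosphodiesterase gene Pde5a (-1.08 ± 0.12, adjusted p = 1.31e-05) and Plcxd3 (-0.98 ± 0.11, adjusted p = 1.28e-05) were lowest beside Ppp1r1a, which had -2.98 ± 0.17. Ppp1r1b, a close relative of Ppp1r1a known as DARPP-32, rose from a mean of 0.818 CPM in WT to 2.59 CPM in db/db (1.88 ± 0.58, adjusted p = 0.0205). Its db/db libraries held 4.74, 1.51 and 1.52 CPM. Against db/+, with a mean of 2.43 CPM, Ppp1r1b did not pass (0.35 ± 0.51, adjusted p = 0.616 by edgeR). Of 36 genes of cholesterol and lipid metabolism, 21 fell and 4 rose, with a median of -0.42. Scd2, a fatty acid desaturase, fell by 1.67 ± 0.13 (adjusted p = 1.09e-06) and Idi1, an enzyme of the sterol pathway, by 1.97 ± 0.44 (adjusted p = 0.00269). Pnpla3 (2.48 ± 0.22, adjusted p = 1.30e-06) and Fabp5 (1.87 ± 0.34, adjusted p = 6.20e-04), both of fatty acid handling, rose.

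Chromosome 4 held 8 of the 42 genes, or 19.0%, beside 6.46% of the expressed genes with a known position. Those described here are Epha7, Tmem215, Dnaja1, Dennd4c, Fam151a, Vwa5b1 and Angptl7. Lepr lies on the same chromosome, at 101717137 to 101815352, with Fam151a 4.92 Mb from it and the other 6 named 14.9 to 72.7 Mb away. Of the 32 expressed genes within 5 Mb of Lepr, 9 fell and 5 rose in db/db against WT, beside 19.9% and 21.8% of all 16826 tested genes. The bases are unlike, since the tested genes include some that did not reach 5 CPM in all 6 WT and db/+ libraries. Members in this window, Fam151a among them, are counted in the 32 and were chosen as low in db/db. The median db/db level of the 32 was 78.5% of the mean of the other 6 libraries, beside 81.9% for all expressed genes.

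Tmem215 and Dnaja1 lie 247 kb apart with 1 expressed gene, Aptx, between them, which was at 94.0% of the mean of the other 6 libraries in db/db. Where a member overlaps another named gene, reads could be shared, since the strand setting is not known. Mroh7 and Acot11, which overlap Fam151a, were at 96.4% and 129.4% in db/db against 6.75% for Fam151a. Mtor was at 64.1% against 16.8% for Angptl7 inside it, and Zfp646 at 71.0% against 24.3% for Prss53. Lrfn4, which lies within Pcx, was lower as well, at 42.2% against 22.8%.

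Start-site sequence was compared because the 42 genes are low together. RefSeq promoter windows of GRCm38.p6, from 250 bases before to 50 after a start site, were found for 34 of the 42 genes (48 windows). The windows are shown for Fam151a, which had the highest level per length of the members with little known function, Gad1, the transmitter gene with the highest mean CPM, and Vdr, the transcription factor among the members. Capitals mark every match to 7 motifs searched on both strands: the CRE TGACGTCA, the TATA box TATAAA, the MARE hemisite TGCTGA of MAF factors, the E-box CAGATG, the A-box core TAATTA, the HNF1 hemisite GTTAAT and the CCAAT box CCAAT. Each window runs 5′ to 3′ along the gene's strand, at chr4:106733665-106733964 (plus) for Fam151a, chr2:70561879-70562178 (plus) for Gad1 and chr15:97908247-97908546 (minus) for Vdr.
Fam151a: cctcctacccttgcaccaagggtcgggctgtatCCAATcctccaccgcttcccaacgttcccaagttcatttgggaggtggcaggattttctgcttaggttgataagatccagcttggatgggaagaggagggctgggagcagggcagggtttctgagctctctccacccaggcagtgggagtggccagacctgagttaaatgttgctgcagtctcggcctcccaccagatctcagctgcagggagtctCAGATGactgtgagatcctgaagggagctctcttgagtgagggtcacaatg
Gad1: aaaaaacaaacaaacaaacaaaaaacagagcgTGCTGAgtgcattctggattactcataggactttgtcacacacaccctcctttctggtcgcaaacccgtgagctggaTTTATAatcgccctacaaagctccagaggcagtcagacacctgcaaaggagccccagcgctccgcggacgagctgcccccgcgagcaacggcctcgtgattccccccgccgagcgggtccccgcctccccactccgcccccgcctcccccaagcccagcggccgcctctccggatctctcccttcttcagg
Vdr: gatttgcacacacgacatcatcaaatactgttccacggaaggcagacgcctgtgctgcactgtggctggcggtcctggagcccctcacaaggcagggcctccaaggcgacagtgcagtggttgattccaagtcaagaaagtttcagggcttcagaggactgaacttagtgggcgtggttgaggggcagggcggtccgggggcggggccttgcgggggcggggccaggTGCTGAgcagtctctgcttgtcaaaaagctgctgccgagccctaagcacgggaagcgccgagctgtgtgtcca

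In these windows Fam151a has a CCAAT box and an E-box that spans the start site, Gad1 a MARE hemisite and a TATA box read on the other strand, and Vdr a MARE hemisite 23 bases before the start site. None of the 48 windows holds the CRE, which 3.33% of the 10388 windows of expressed genes and 1.79% of all 32851 windows hold. The MARE hemisite was in 18.8% of the members' windows, beside 14.6% for expressed genes and 19.5% for all. The TATA box was in 10.4%, beside 6.87% and 13.6%, and the E-box in 10.4%, beside 10.8% and 17.2%. The A-box core was in 2.08% (2.42% and 5.29%), the HNF1 hemisite in 4.17% (4.25% and 7.10%) and the CCAAT box in 41.7% (37.4% in both). The members' windows had a median of 17.0 CpG and 62.0% G and C, beside 21.0 and 61.3% for windows of expressed genes. A match is only a run of letters and not a bound site, and a window without one says nothing about the factor.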

How the data were processed

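RNA of 9 islet libraries was extracted with Trizol and depleted of ribosomal RNA, per the labels' protocols. Per the submitters' processing notes, bcl2fastq 2.20.0.422 and TopHat2 2.0.14 were used with mm10. Counting program, annotation and strand setting: not given in the sources used here. The authors deposited raw read counts per gene symbol, and 1 column of that table matched no sample and was not used. Groups were taken from the genotype labels.

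Levels were computed as counts per 1000000 counts of the column total (CPM). Differences were tested with edgeR 4.0.16 (R 4.3.3; TMM factors, filterByExpr, robust quasi-likelihood test) on all 9 libraries in 3 groups, and p-values were adjusted by the Benjamini-Hochberg method over 16826 genes at a threshold of 0.05. All tests were two-sided. DESeq2 1.42.0, other scalings, no filter, the 2 compared groups alone, the title letter as covariate and each library left out in turn were tried as alternatives. On simulated counts for db/+ against WT (16243 genes), the test recovered 52% of genes changed 1.5-fold and 99% of those changed 3-fold, with 4.43% false calls. The simulation gave every gene the same spread, changed no genes of low count and was fitted to the 2 compared groups alone. These rates therefore need not hold for the real libraries.

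The 42 genes, the gene lists and the partner genes were chosen with earlier results of these data known. Named with values are the members except 1 that is not reported here, the 5 genes nearest outside the threshold, partner genes and, from each list described, the 2 lowest and 2 highest other genes past the test, without those not reported here. Positions and promoter windows are from RefSeq tables of GRCm38.p6, the build named mm10. Exon lengths are from GENCODE vM1 and were used only for levels per length.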

Additional observations from a re-analysis of the deposited data

How the results depend on the processing

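The number of genes meeting the rule was 42, and it was 25 with TMM library sizes, 27 with Gm42418 and Lars2 left out of the totals, 157 when the other 6 libraries had to be more than 2 times the db/db libraries and 18 when more than 4 times. Leaving out each library in turn, which can only add genes, gave 42 to 52. The median db/db level of the 42, 18.5% of the other 6 libraries, was 21.7% with TMM library sizes. The count of genes changed in db/+ against WT, 240, was 768 with no low-count filter, 641 with DESeq2, 45 with the title letter as covariate and 23 to 430 with each library left out. Among the 42 genes that count, 0, was 3 with no filter (Vwa5b1, Kcnh5 and Sfrp5), 2 with DESeq2, 2 with the 2 compared groups alone and 0 to 2 with each library left out. With the title letter as covariate, 4425 genes changed in db/db against WT in place of 7018, 2033 in db/db against db/+ in place of 6773, and 7 genes of cAMP and calcium signalling rose in place of 15. With library totals alone 6 genes of glucose metabolism rose in place of 15. The cause of these shifts was not tested. No paired analysis was possible because the replicate numbers follow accession order and pair no samples. Counts in db/db were fewest for Myo3a (11), T2 (14), Nacad (33), Gad1-ps (35) and Pard6g (35), which limits their precision.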

Other observations

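When the lowest of the 6 WT and db/+ libraries had to be more than 2 times each db/db library, in place of 3 times, 115 further genes met the rule. Stress genes were among those that stood low in db/db near the members, and they were chosen after their values were seen. Of the heat shock genes, Hspa1a was at 20.2%, Hspa1b at 19.4%, Dnajb1 at 19.7% and Hspe1 at 28.2% of the mean of the other 6 libraries. The metallothionein genes Mt1 and Mt2 were at 35.6% and 26.2%. Hspa1a and Hspa1b are near-identical copies, so their counts are uncertain. Below the floor of 5 CPM, the receptor gene Crhr1 was at 6.77% and the nicotinic receptor subunit gene Chrna4 at 3.21%.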
